A study of Homo sapiens with 2 samples.

Results

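The 48 genes described here carry variants that cause hereditary hearing loss in people, and their messenger RNA was followed across the cell types of human inner ear organoids. They were taken by gene symbol from a list drawn up for this purpose, and all 48 were present among the 36601 genes of the count matrices. The organoids were grown from WA25, a human embryonic stem cell line, carrying a reporter that places nuclear tdTomato under SOX2, a transcription factor gene active in otic and neural progenitors. Reporter-positive cells were sorted on day 40, after 90 min in Accutase, and were profiled with the 10x Genomics 3′ assay. One library came from organoids labelled GelNB-CH, a hydrogel set under UV light, and 1 from organoids labelled Matrigel, a basement membrane extract from a mouse tumour. The culture text is the same for both libraries. It names the ROCK inhibitor Y27632 at seeding, then FGF-2, the TGF-β receptor inhibitor SB-431542, BMP-4 and a low share of growth factor-reduced Matrigel at the start, then the BMP inhibitor LDN193189 and the WNT activator CHIR99021. It then gives embedding in GelNB-CH with PEG4SH on day 11 and oDex on day 15, so how the Matrigel library was embedded is not stated there. The cells come from 1 line, how many organoids were pooled is not given, and the sort keeps only cells with SOX2 reporter signal, so levels in neurons, glia and mesenchyme describe the reporter-positive cells of those types.

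Hearing depends on many cell types, and genes for inherited deafness act in most of them. Sensory hair cells open ion channels when their actin-filled stereocilia bend and pass the signal on through ribbon synapses. The otic epithelium around them secretes the extracellular gels and seals the endolymph with tight junctions, mesenchyme forms the bony capsule and fibrocytes, and neurons with their glia carry the signal to the brain. Mutations in widely used cytoskeletal and mitochondrial genes can also cause deafness with few other signs.

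The GelNB-CH library held 21743 barcodes and 247006223 unique molecular identifiers (UMIs, each 1 captured transcript), and the Matrigel library held 10912 barcodes and 178672097 UMIs. After filters on detected genes, mitochondrial share and doublets, 18253 and 9800 cells remained, and 78 barcodes occurred in both libraries. Cells were clustered without the 48 genes, and the clusters were named from marker lists that hold none of them. In the order GelNB-CH then Matrigel, which is kept throughout, the cells comprised 6660 and 2644 otic epithelium-like, 7210 and 3330 mesenchyme-like (cartilage-like cells included), 1272 and 2494 glia-like and 1428 and 860 neuron-like cells. Among all barcodes, 23 and 12 had UMIs of at least 8 of 16 hair cell markers, and 7 and 0 of these were marked as doublets and removed. The hair cell-like cells, which are the kept cells that reach this limit, numbered 16 and 12. They carried a median of 12 and 14.5 of those markers, no cell had 6 or 7, and 1 and 4 cells had 5. They also had a median of 3 and 4 of 12 neuron markers, 5 of 12 otic epithelium markers in each library and 3 and 2.5 of 6 ciliated cell markers. The ciliated cell list was second for their cluster, with 5 of 6 markers passing. Neither group has a replicate. Levels are given as CPM, the usual depth-scaled unit, here a gene's summed UMIs over all UMIs of the cells named, and each interval is an exact 95% interval that covers counting error only. In each other lineage the cells carried a median of 6 to 9 markers of their own list of 10 or 12. Levels are compared mainly between cell types for the same gene, because the values are not corrected for differences in capture between genes.

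Each gene was placed in 1 of the 5 lineages when its CPM there was the highest in both libraries, at least 2-fold above the next lineage, with the interval of that ratio above 1. Genes whose highest lineage was under 5 CPM in at least 1 of the libraries were called low, genes whose highest lineage was at most 4 times the lowest in both were called broad, and the rest were called shared. Hair cells held the largest group with a single lineage. Of the 48 genes, 11 were placed in hair cell-like cells (TMIE, LHFPL5, OTOF, CABP2, MYO6, EPS8L2, TMPRSS3, SYNE4, HOMER2, SMPX and PJVK), which is 22.9%, beside 1.64% of all 36601 genes. No gene was placed in otic epithelium (0.388% of all genes) or neurons (1.02%), 2 were placed in mesenchyme (MSRB3 and CRYM, beside 0.803%) and 1 in glia (MET, beside 0.888%). A further 11 were broad (20.9% of all genes), 15 were shared (13.3%) and 8 were low (61% of all genes). Among the 14282 genes that were not low, 4.22% were placed in hair cell-like cells, 0.994% in otic epithelium, 2.06% in mesenchyme, 2.28% in glia and 2.61% in neurons.

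**Figure D1:**
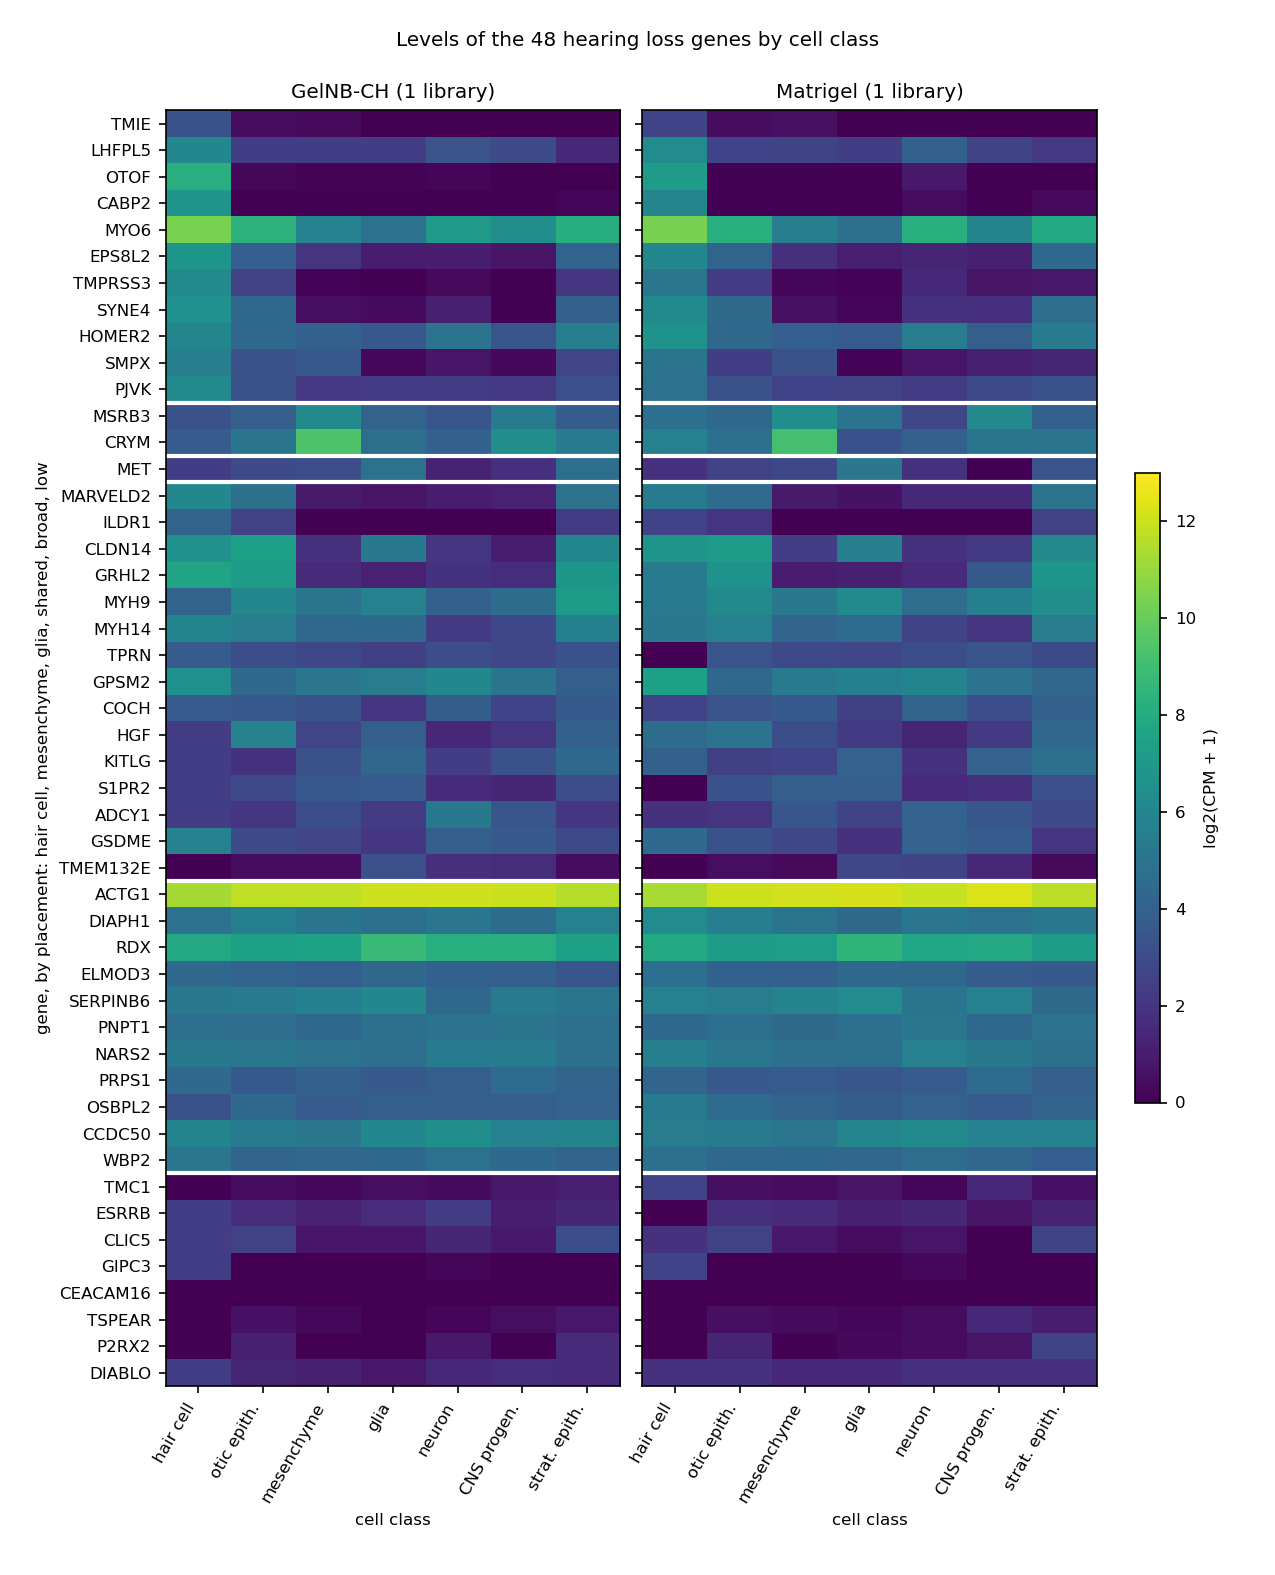
Heat map of log2(CPM + 1) for the 48 genes (rows) in 7 cell classes (columns), with GelNB-CH on the left and Matrigel on the right, 1 library each. White lines separate the genes placed in hair cells, mesenchyme and glia, then the shared, broad and low genes, and the hair cell column is brightest for the top block of 11 genes while the rows from ACTG1 to WBP2 stay even across classes.

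The mechanotransduction complex at the tips of the stereocilia was represented by TMC1, a pore-forming subunit, and by TMIE and LHFPL5, which hold the channel in place and link it to the tip link. LHFPL5 was at 66.4 and 77.3 CPM in hair cell-like cells. It was at 4.26 and 5.22 CPM in otic epithelium, 4.12 and 5.44 in mesenchyme, 4.13 and 4.28 in glia and 9.04 and 15.4 in neurons. The hair cell level was thus 7.35-fold (4.06 to 12.5) and 5.01-fold (3.30 to 7.36) above that in neurons, the next lineage, and 10 of 16 and 10 of 12 hair cell-like cells had a UMI. TMIE rested on 2 UMIs in each library, or 8.30 and 5.15 CPM, with 0.335 and 0.346 CPM in otic epithelium, 0.251 and 0.522 in mesenchyme, 0 and 0.0274 in glia and 0 and 0.0718 in neurons. Its ratio to the next lineage had wide intervals, 24.8-fold (2.85 to 99.1) and 9.88-fold (1.14 to 39.5), and its placement was lost with doublets kept, after thinning, with a mean over cells and without the deepest hair cells. TMC1 was low, with 0 UMIs among the 240846 of the GelNB-CH hair cell-like cells, which allows up to 12.5 CPM (3 UMIs), and 2 UMIs or 5.15 CPM in Matrigel. It was at 0.347 and 0.469 CPM in otic epithelium, 0.207 and 0.361 in mesenchyme, 0.403 and 0.603 in glia and 0.320 and 0.144 in neurons. In Matrigel hair cell-like cells were the highest lineage, 8.55-fold above glia, the next, with an interval of 0.974 to 34.8 that includes 1, and in GelNB-CH a difference was not detectable at this depth.

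The ribbon synapse genes were the most restricted of the set. OTOF encodes otoferlin, the calcium sensor for vesicle release at the ribbon, and lies at chr2:26457203-26558698 on the minus strand of GRCh38 in the GENCODE v29 annotation. CABP2, a calcium-binding regulator of the presynaptic calcium channel, lies at chr11:67518912-67524517 on the minus strand, and its RefSeq start lies inside that span. The 250 bases before the RefSeq transcription start of each gene (GRCh38.p14, minus strand, 5′ to 3′) are shown because these 2 genes separate hair cell-like cells from all other lineages most sharply. They span chr2:26558757-26559006 for OTOF and chr11:67523447-67523696 for CABP2.
OTOF: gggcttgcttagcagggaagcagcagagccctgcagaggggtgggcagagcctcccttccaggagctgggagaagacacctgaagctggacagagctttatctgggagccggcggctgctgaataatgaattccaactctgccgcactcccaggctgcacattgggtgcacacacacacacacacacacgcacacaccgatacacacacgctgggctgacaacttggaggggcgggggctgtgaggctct
CABP2: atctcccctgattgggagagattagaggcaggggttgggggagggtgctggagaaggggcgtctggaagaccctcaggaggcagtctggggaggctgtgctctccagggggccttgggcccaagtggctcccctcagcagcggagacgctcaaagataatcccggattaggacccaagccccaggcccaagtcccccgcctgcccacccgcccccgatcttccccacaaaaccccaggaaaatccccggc
CABP2, E-box after the start: tctcatcgggagCAGCTGggggctggcagg
The last line, at chr11:67523404-67523433, lies just past the start of CABP2, and its capitals mark CAGCTG, 1 form of the E-box bound by basic helix-loop-helix factors such as ATOH1. Windows of 300 bases (250 before and 50 after the start) were available from RefSeq for 40 of the 48 genes, among them all 11 placed in hair cells, and each window was searched on both strands. CAGCTG occurred in 1 of these 11 windows and in 4 of the 40, beside 17.9% of 35116 RefSeq promoter windows. CAGATG, another E-box form, occurred in 0 of the 11 and 4 of the 40, beside 14.7% of all windows. AACCGGTT, a site letter pattern for grainyhead factors such as GRHL2, occurred in 0 of the 40 (0.134% of all windows), and its looser form AACNGGTT, which contains it, also in 0 of the 40 (1.73%).

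OTOF was at 286 and 144 CPM in hair cell-like cells, or 309 and 247 CPM without the deepest of them. In the other lineages it did not pass 0.862 CPM, with 0.193 and 0.0611 in otic epithelium, 0.0885 and 0.0602 in mesenchyme, 0.101 and 0.0548 in glia and 0.160 and 0.862 in neurons. The hair cell level was 1484-fold (841 to 2793) above otic epithelium in GelNB-CH and 168-fold (88.8 to 343) above neurons in Matrigel. CABP2 was at 108 and 59.3 CPM in hair cell-like cells, from 26 and 23 UMIs. Elsewhere it was at 0.0129 and 0 CPM in otic epithelium, 0.0443 and 0 in mesenchyme, 0 in glia of both libraries and 0 and 0.359 in neurons. UMIs of OTOF occurred in 13 of 16 and 10 of 12 hair cell-like cells and UMIs of CABP2 in 11 of 16 and 12 of 12, so neither level came from 1 or 2 cells. When each cell was thinned to 5000 UMIs, 50% of hair cell-like cells had an OTOF UMI in each library, beside 0.0987% and 0.0403% of otic epithelium-like cells. For CABP2 the shares were 50% in each library, beside 0 of 6077 and 0 of 2481 otic epithelium-like cells. Otic epithelium-like cells had a median of 9625 and 15494 UMIs before thinning and hair cell-like cells 11136 and 21239. Hair cell markers themselves reached a median of 0.128% and 0.273% of their hair cell level in otic epithelium, and OTOF stood there at 0.0674% and 0.0424% of its hair cell level.

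The actin, motor and polarity group held 12 genes, of which 2 were placed in hair cells, 4 were broad, 4 were shared and 2 were low. MYO6, a motor that walks towards the minus end of actin and anchors the base of the stereocilia, lies at chr6:75749192-75919537. It was at 1337 and 1309 CPM in hair cell-like cells and was detected in every one of them. It was at 326 and 279 CPM in otic epithelium, 53.4 and 46.2 in mesenchyme, 29.1 and 27.3 in glia and 131 and 285 in neurons. Hair cells stood 4.10-fold (3.66 to 4.57) above otic epithelium in GelNB-CH and 4.598-fold (4.18 to 5.04) above neurons in Matrigel. MYO6 thus differs from OTOF in kind, being enriched in hair cell-like cells over a level that was widespread: after thinning, 73.0% and 66.1% of otic epithelium-like cells had a UMI. EPS8L2, an actin-regulating protein of the stereocilia tips, was at 104 and 64.4 CPM in hair cell-like cells, 13.8 and 17.0 in otic epithelium, 2.91 and 2.45 in mesenchyme, 1.007 and 1.10 in glia and 0.960 and 1.51 in neurons. Its hair cell level was 7.52-fold (4.84 to 11.2) and 3.79-fold (2.44 to 5.64) above otic epithelium.

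The broad members of this group were ACTG1 (gamma actin), DIAPH1 (a formin that nucleates actin), RDX (radixin, which ties membrane to actin) and ELMOD3 (a regulator of small GTPases). ACTG1 ranged from 2433 to 4205 CPM over the 5 lineages in GelNB-CH and from 2539 to 4506 in Matrigel, and was lowest in hair cell-like cells in both. RDX was highest in glia, at 440 and 368 CPM, and lowest in otic epithelium, at 169 and 139. Within glia it was at 639 and 454 CPM in cluster 16, 456 and 317 in cycling cluster 23 and 261 and 236 in cluster 17. DIAPH1 was at 29.1 and 77.3 CPM in hair cell-like cells, 48.2 and 46.4 in otic epithelium, 32.8 and 31.2 in mesenchyme, 25.9 and 21.4 in glia and 33.4 and 33.5 in neurons. Across all 11 broad genes, the highest lineage stood between 1.47-fold (PNPT1) and 3.39-fold (SERPINB6) above the lowest in GelNB-CH and between 1.38-fold (WBP2) and 3.62-fold (DIAPH1) in Matrigel.

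GPSM2 (a polarity protein that sets the shape of the hair bundle and orients mitotic spindles) was highest in hair cell-like cells, at 91.3 and 160 CPM, but did not pass the fold limit in GelNB-CH, since neurons were at 66.5 and 57.7. It was at 21.03 and 19.2 CPM in otic epithelium, 33.2 and 39.2 in mesenchyme and 45.3 and 47.6 in glia. Outside hair cells it followed the cycling clusters, at 144 and 124 CPM in cycling neuron-like cluster 11, 119 and 127 in cycling glia-like cluster 23 and 52.9 and 54.7 in cycling otic cluster 22, beside 9.92 to 22.0 and 13.2 to 17.1 in the other otic clusters. The non-muscle myosins MYH9 and MYH14 were shared. MYH9 was at 16.6 and 38.7 CPM in hair cell-like cells, 64.5 and 71.7 in otic epithelium, 30.7 and 36.003 in mesenchyme, 51.8 and 71.0 in glia and 14.6 and 23.9 in neurons, while stratified epithelium-like cells, outside the 5 lineages, held 134 and 84.4. MYH14 was at 58.1 and 36.1 CPM in hair cell-like cells, at 43.2 and 50.5 in otic epithelium and at 3.68 and 5.24 in neurons. TPRN, a protein of the stereocilia base, was at 12.5 and 0 CPM in hair cell-like cells, where 0 in Matrigel allows up to 7.73 CPM, 7.73 and 9.27 in otic epithelium, 5.96 and 6.34 in mesenchyme, 4.53 and 5.81 in glia and 7.44 and 7.75 in neurons. CLIC5, which works with radixin, was low but close to the limit of 5 CPM, at 4.68 and 4.95 CPM in otic epithelium. In otic cluster 1 it was at 8.48 and 12.6 CPM. GIPC3, a PDZ-domain protein, was low, on 1 and 2 UMIs in hair cell-like cells and at most 0.215 CPM in any other lineage.

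**Figure D2:**
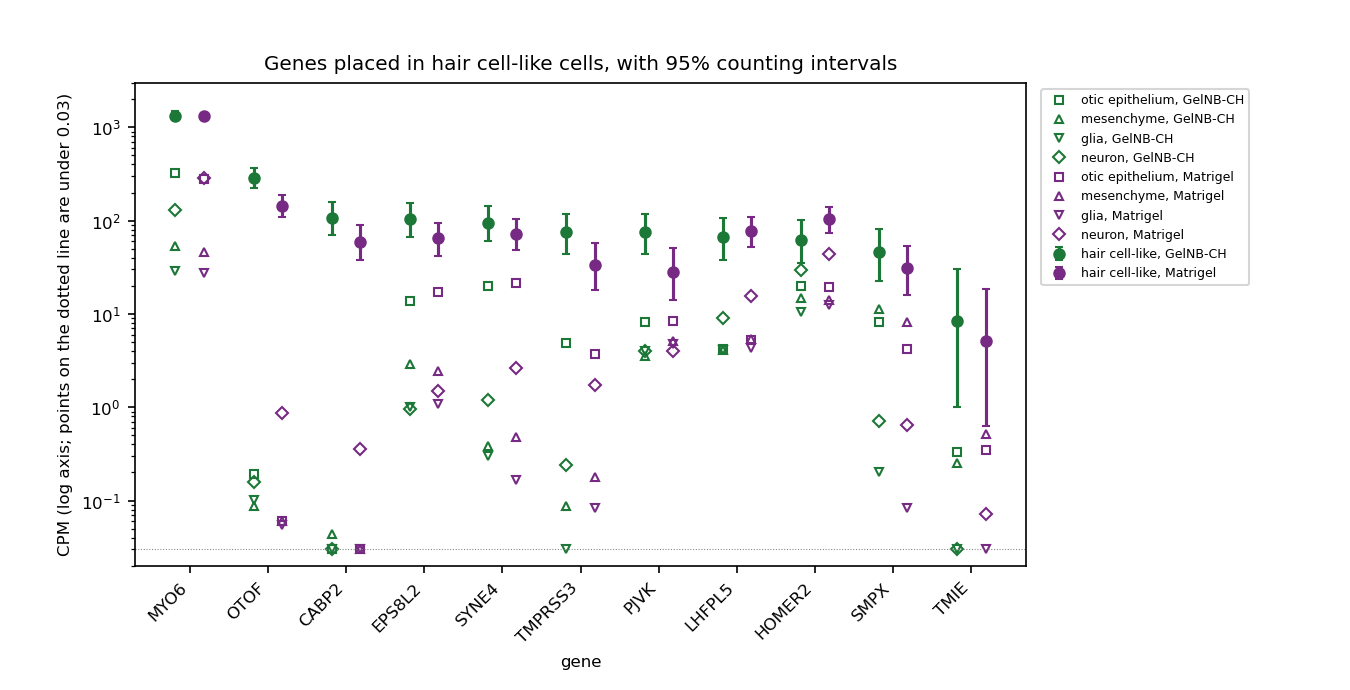
CPM on a log axis of the 11 genes placed in hair cells (x axis), in green for GelNB-CH and purple for Matrigel. Filled circles with 95% counting intervals are hair cell-like cells (16 and 12 cells), open symbols are the other lineages, and the gap to the open symbols is widest for OTOF and CABP2 and smallest for HOMER2.

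Protease and structural genes completed the hair cell group. TMPRSS3, a membrane serine protease needed for hair cell survival, was at 74.7 and 33.5 CPM in hair cell-like cells. It was at 4.86 and 3.71 CPM in otic epithelium, 0.0885 and 0.181 in mesenchyme, 0 and 0.0822 in glia and 0.240 and 1.72 in neurons, so that hair cells were 15.4-fold (9.01 to 24.6) and 9.03-fold (4.72 to 15.8) above otic epithelium. SYNE4 encodes nesprin-4, which positions the nucleus at the base of the cell, and was at 95.5 and 72.2 CPM in hair cell-like cells. The otic epithelium held 20.0 and 21.5 CPM of SYNE4, and mesenchyme 0.384 and 0.482, glia 0.302 and 0.165, and neurons 1.20 and 2.66. Hair cells stood 4.78-fold (3.02 to 7.20) and 3.36-fold (2.22 to 4.89) above otic epithelium. PJVK (pejvakin, a gasdermin family protein of the cell's peroxisomes) was at 74.7 and 28.4 CPM in hair cell-like cells, 8.19 and 8.31 in otic epithelium, 3.51 and 5.08 in mesenchyme, 4.03 and 4.77 in glia and 4.00 and 4.02 in neurons. Its ratios to otic epithelium were 9.13-fold (5.38 to 14.5) and 3.41-fold (1.69 to 6.17).

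HOMER2 and SMPX were placed in hair cells with closer neighbours. HOMER2, a postsynaptic scaffold that also binds stereocilia proteins, was at 62.3 and 103 CPM in hair cell-like cells and at 29.7 and 43.5 in neurons. It was at 19.7 and 19.3 CPM in otic epithelium, 14.8 and 14.0 in mesenchyme and 10.6 and 12.4 in glia. The margin over neurons was 2.10-fold (1.16 to 3.51) and 2.37-fold (1.68 to 3.26), near the limit of 2. The placement of HOMER2 was lost under 5 of the 10 alternative settings: the looser cell filter, clustering at resolution 0.5 and 2, thinning and a 3-fold limit. SMPX, a small protein of stretch-bearing cells, was at 45.7 and 30.9 CPM in hair cell-like cells, 8.21 and 4.26 in otic epithelium, 11.3 and 8.25 in mesenchyme, 0.201 and 0.0822 in glia and 0.720 and 0.646 in neurons. In the muscle-like cluster, which stood outside the placement and held 22 and 2 cells, SMPX reached 343 and 1641 CPM, so hair cells were its highest site only among the 5 lineages. Within mesenchyme it was at 30.9 and 30.4 CPM in cartilage-like cluster 8, beside 0.968 and 0.233 in mesenchyme-like cluster 4.

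Single hair cell-like cells were read one by one because so few carried each sum. A cell had UMIs of a median of 6.5 and 8.5 of the 11 genes, and otic epithelium-like cells of a median of 1 and 2. After thinning to 5000 UMIs the medians were 5 and 3.5 in hair cell-like cells and 1 and 1 in otic epithelium. Depth differed widely among the cells, from 8486 to 37935 UMIs in GelNB-CH and from 11649 to 86531 in Matrigel. In the deepest cells some shared genes were concentrated: 40 of the 47 GelNB-CH UMIs of GRHL2 came from 1 cell of 37935 UMIs, which also held 41 UMIs of the otic epithelium marker OC90. All 19 Matrigel UMIs of CRYM came from the cell of 86531 UMIs, all 9 of HGF from 1 cell of 60315 UMIs, and 26 of 41 of CLDN14 from 1 cell of 70974 UMIs with 180 UMIs of OC90. Per 10000 UMIs, OC90 was at 10.8 in the cell of 37935 UMIs, beside 19.2 in a GelNB-CH cell of 17154 UMIs with 1 GRHL2 UMI. In the cell of 70974 UMIs it was at 25.4, the highest among the Matrigel hair cell-like cells. Whether the deep cells were caught with another cell was not tested. With cells above 2 times their library's median depth left out, an alternative chosen after seeing the data that kept 14 and 9 cells, 10 of the 11 genes were still placed in hair cells and TMIE was not. The kept cells held 171470 of 240846 and 170185 of 388005 UMIs, so the deepest cells weigh most on the Matrigel levels. All 10 genes were higher without those cells. LHFPL5 was at 70.0 and 141 CPM, OTOF at 309 and 247, CABP2 at 134 and 106 and MYO6 at 1575 and 1845. EPS8L2 was at 134 and 94.0 CPM, TMPRSS3 at 81.6 and 64.6, SYNE4 at 111 and 112, HOMER2 at 64.2 and 135, SMPX at 52.5 and 41.1 and PJVK at 99.1 and 47.0. CLDN14, GRHL2 and HGF were then placed in otic epithelium, with hair cell levels of 29.2 and 23.5 CPM for CLDN14 and 17.5 and 11.8 for GRHL2.

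**Figure D3:**
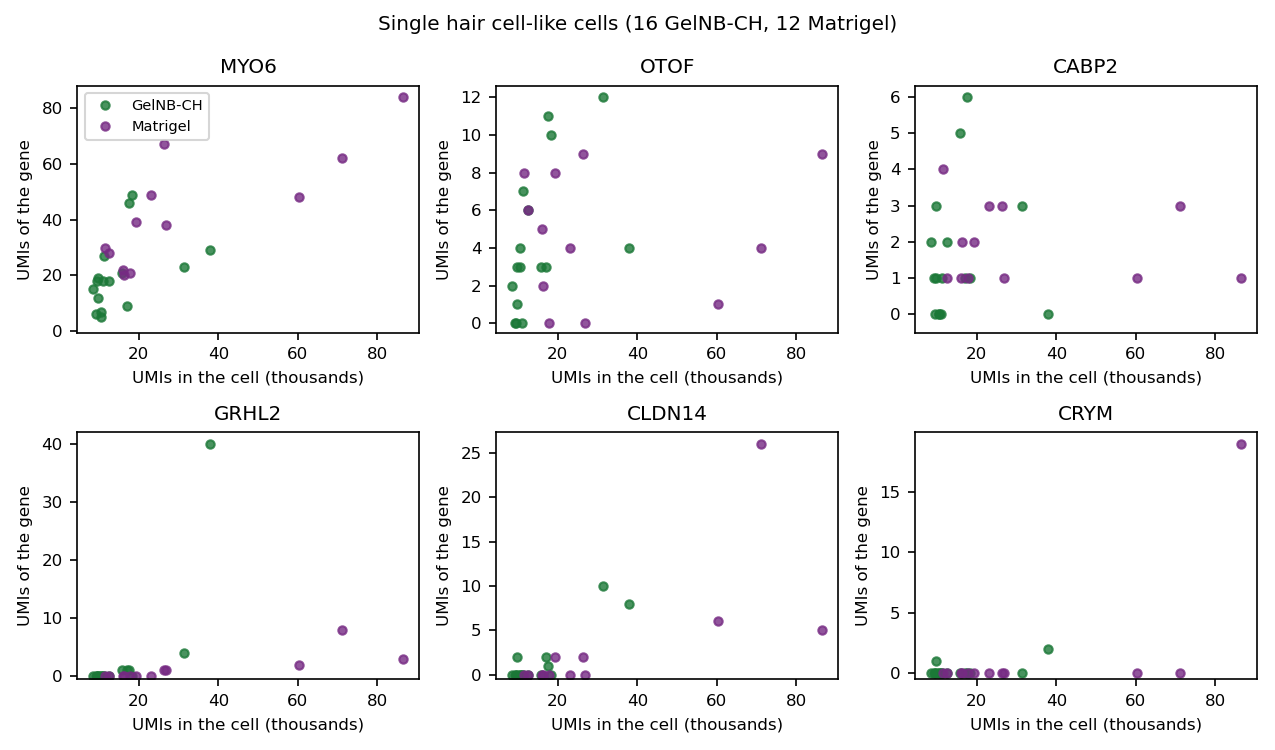
UMIs of 6 genes (y axis) against total UMIs (x axis, in units of 1000) in each hair cell-like cell, 16 from GelNB-CH in green and 12 from Matrigel in purple. MYO6 is present in every cell and OTOF in 13 and 10 cells, whereas the highest points of GRHL2 (40 UMIs), CLDN14 (26) and CRYM (19) are each 1 deep cell.

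Tight junction genes and the transcription factor GRHL2 were called shared, with hair cell-like cells and otic epithelium as their highest lineages in both libraries. In hair cell-like cells 9 otic markers stood at a median of 44.3% and 52.1% of their otic level. CLDN14, a claudin of the seal around hair cells, was at 95.5 and 106 CPM in hair cell-like cells, 160 and 137 in otic epithelium, 2.63 and 4.09 in mesenchyme, 37.6 and 46.5 in glia and 3.12 and 2.73 in neurons. Glia thus held 23.4% and 33.9% of the otic level of CLDN14, beside a median of 2.86% and 3.39% for 9 otic markers in glia. MARVELD2 (tricellulin, a tight junction protein of the corners where cells meet) was at 66.4 and 38.7 CPM in hair cell-like cells, 26.6 and 22.4 in otic epithelium and at most 1.72 CPM in the other 3 lineages. ILDR1, which recruits tricellulin, was at 16.6 and 5.15 CPM in hair cell-like cells, from 4 and 2 UMIs, at 4.66 and 3.02 in otic epithelium, 0.0590 and 0 in mesenchyme, 0 and 0.0274 in glia and 0 in neurons of both libraries. GRHL2, a grainyhead-type activator of epithelial junction genes, was at 195 and 38.7 CPM in hair cell-like cells, 143 and 101 in otic epithelium, 2.07 and 1.06 in mesenchyme, 1.31 and 1.21 in glia and 2.8 and 1.94 in neurons. Stratified epithelium-like cells held 115 and 112 CPM of GRHL2, 64.2 and 69.3 of CLDN14 and 27.8 and 29.6 of MARVELD2. When the 4 lineages other than hair cells were placed among themselves, also an alternative chosen after seeing the data, otic epithelium received 7 genes: MARVELD2, CLDN14, GRHL2, MYH14, EPS8L2, HGF and SYNE4. That is beside 1.42% of all genes. ESRRB, a nuclear receptor of secretory inner ear epithelium, was low, at no more than 4.15 CPM in any of the 5 lineages.

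The 7 otic clusters did not hold these genes evenly. Otic cluster 6, with 1154 and 608 cells, was named from 8 of 12 otic markers and led by CALB1, MYBPC1, GRIN2A, UGT2B7, LMX1A, HDC and OC90. LMX1A was at 64.8 and 71.9 CPM there, beside 70.5 to 328 and 58.7 to 275 in the other otic clusters. At resolution 2, a cluster led by CALB1 and MYBPC1, of 577 and 184 cells, was unnamed. It passed 5 of 10 cartilage and 5 of 12 otic markers. Another with CALB1 among its leading genes, of 336 and 319 cells, was named from 11 of 12 otic markers. In the main clustering, cluster 6 held the lowest otic level in both libraries of 9 of the 40 genes that were not low: MARVELD2, ILDR1, CLDN14, GRHL2, MYH9, DIAPH1, EPS8L2, TMPRSS3 and SYNE4. There GRHL2 was at 4.56 and 2.87 CPM, beside 58.4 to 194 and 57.3 to 161 in the other otic clusters. CLDN14 was at 28.0 and 43.0 CPM, beside 66.1 to 279 and 62.0 to 193, and MARVELD2 at 2.33 and 1.62, beside 22.2 to 33.1 and 22.2 to 30.8. The epithelial marker EPCAM was at 26.1 and 17.4 CPM in that cluster and at 295 to 462 and 292 to 404 in the other 6, and the otic marker OC90 was at 1567 and 1218 CPM there, below 2525 to 5894 and 1631 to 5413 in the other 6. CRYM, at 121 and 83.6 CPM, and MSRB3, at 37.6 and 41.2, had their highest otic level in the same cluster, as did LHFPL5 and HOMER2. The summed mesenchyme markers there were 394 and 236 CPM, above 86.5 to 252 and 53.6 to 149 in the other otic clusters, and their part in these levels was not tested. MYO6 was lowest in another otic cluster, cluster 2, at 138 and 149 CPM, and highest in cluster 14, at 422 and 380. Without cluster 6 among the otic cells, 0 genes were placed in otic epithelium and the same 11 in hair cells, and CLIC5 was shared instead of low.

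**Figure D4:**
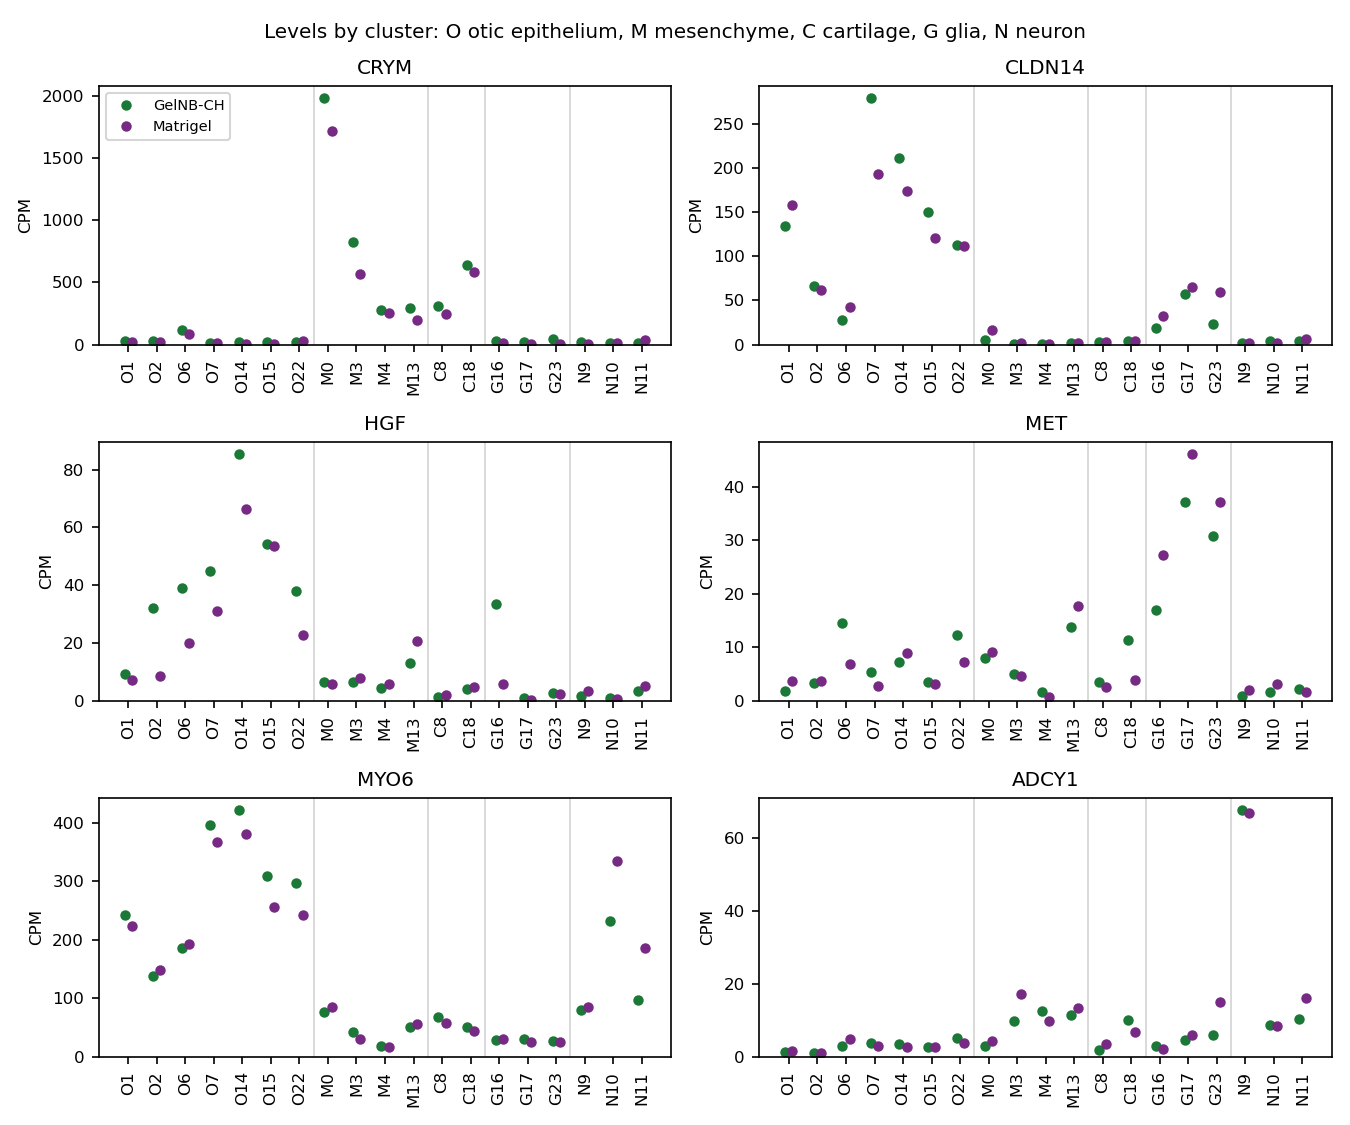
CPM of 6 genes (y axes) in the otic (O), mesenchyme (M), cartilage (C), glia (G) and neuron (N) clusters, numbered on the x axes, with GelNB-CH in green and Matrigel in purple. CRYM peaks in mesenchyme cluster 0 (1981 and 1722 CPM), ADCY1 in neuron cluster 9 (67.6 and 66.9), MET in glia cluster 17 and HGF in otic cluster 14.

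Among the enzymes, CRYM and MSRB3 marked mesenchyme. CRYM, the thyroid hormone-binding protein mu-crystallin, lies at chr16:21238874-21303083. It was at 656 and 581 CPM in mesenchyme, beside 12.5 and 49.0 in hair cell-like cells, 31.9 and 26.1 in otic epithelium, 25.4 and 8.72 in glia and 15.7 and 15.01 in neurons. In GelNB-CH mesenchyme stood 20.6-fold (19.8 to 21.5) above otic epithelium, and in Matrigel 11.9-fold (7.60 to 19.7) above hair cell-like cells, whose level came from the single deep cell. Mesenchyme-like cluster 0, a group also led by ERG, EPYC and PENK, held 1981 and 1722 CPM of CRYM, although the gene had no part in the clustering, beside 279 and 252 in cluster 4. Outside the 5 lineages, the unnamed cluster led by MLANA, IFITM1, BCAN and PMEL held 544 and 619 CPM of CRYM, a level close to that of mesenchyme. That cluster passed 6 of 10 cartilage and 6 of 12 mesenchyme markers, and was unnamed because of its leading genes, among them the melanocyte markers MLANA and PMEL. At resolution 0.5, a melanocyte-like cluster of 74 and 2 cells stood apart. A mesenchyme-like cluster of 1331 and 573 cells was then led by CRYM, EPYC and IFITM1. Whether the CRYM of the unnamed cluster comes from mesenchymal cells was not tested. MSRB3, a methionine sulfoxide reductase, was at 73.5 and 85.3 CPM in mesenchyme, 8.30 and 25.8 in hair cell-like cells, 14.4 and 19.7 in otic epithelium, 16.6 and 30.2 in glia and 10.2 and 5.89 in neurons. Its ratio to glia was 4.43-fold (3.79 to 5.20) and 2.82-fold (2.64 to 3.02), and it was more even among mesenchymal clusters than CRYM, from 45.7 to 96.0 and from 49.5 to 127 CPM.

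PNPT1 (mitochondrial RNA import and processing), NARS2 (a mitochondrial asparagine-tRNA synthetase) and PRPS1 (phosphoribosyl pyrophosphate synthesis) were broad. NARS2 ranged from 25.3 to 40.0 CPM and from 24.6 to 49.4, and PRPS1 from 11.5 to 20.8 and from 10.2 to 18.04. GSDME, a gasdermin that forms membrane pores in dying cells, was shared and highest in hair cell-like cells, at 54.0 and 20.6 CPM, with 6.77 and 8.40 in otic epithelium, 5.50 and 5.80 in mesenchyme, 3.22 and 2.66 in glia and 14.5 and 16.1 in neurons. Of its 13 GelNB-CH UMIs 6 came from 1 cell. DIABLO, an inhibitor of caspase inhibitors, was low at no more than 4.15 CPM. In GENCODE v29, 29.6% of its exon bases overlap, on the same strand, exons of AC048338.1 and of a further entry also named DIABLO. Where the annotation used for counting holds these entries, reads in that overlap cannot be assigned to 1 of them, so the DIABLO level is uncertain. SERPINB6, a protease inhibitor, was broad, at 67.0 and 77.4 CPM in glia and 19.8 and 32.2 in neurons. The broad OSBPL2 (a sterol transfer protein), CCDC50 (a ubiquitin-binding protein) and WBP2 (a co-activator of hormone receptors) lay between 8.30 and 87.0 CPM in all 5 lineages. OSBPL2 was at 8.30 and 38.7 CPM in hair cell-like cells, 20.5 and 22.7 in otic epithelium, 12.3 and 16.8 in mesenchyme, 14.4 and 13.3 in glia and 14.4 and 16.01 in neurons.

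The secreted ligand HGF and its receptor MET were highest in different cells. HGF, at chr7:81699008-81770438, was at 53.4 and 29.5 CPM in otic epithelium, 4.15 and 23.2 in hair cell-like cells, 5.64 and 7.59 in mesenchyme, 14.4 and 3.62 in glia and 1.76 and 1.51 in neurons. It was shared rather than otic because the Matrigel hair cell level, from the 9 UMIs of 1 cell, stood close to that of otic epithelium. MET, at chr7:116672390-116798386, was at 28.1 and 34.3 CPM in glia, 4.15 and 2.58 in hair cell-like cells, 7.19 and 4.77 in otic epithelium, 7.35 and 6.12 in mesenchyme and 1.36 and 2.73 in neurons. Glia stood 3.82-fold (3.29 to 4.44) and 5.61-fold (4.94 to 6.38) above mesenchyme, the next lineage. MET was also at 33.4 and 74.6 CPM in the muscle-like cluster. Within glia MET was at 37.2 and 46.1 CPM in cluster 17 and at 16.9 and 27.3 in cluster 16.

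KITLG, the KIT ligand (also at 20.6 and 24.7 CPM in stratified epithelium-like cells), was at 18.3 and 16.2 CPM in glia, 4.15 and 15.5 in hair cell-like cells, 2.79 and 4.50 in otic epithelium, 8.31 and 5.04 in mesenchyme and 4.08 and 2.73 in neurons. S1PR2, a sphingosine-1-phosphate receptor, was highest in glia, at 12.99 and 14.4 CPM, next to mesenchyme at 10.8 and 14.2, so these 2 lineages were close. ADCY1, a calcium-stimulated adenylyl cyclase, was at 36.6 and 16.1 CPM in neurons, 4.15 and 2.58 in hair cell-like cells, 3.23 and 2.91 in otic epithelium, 7.58 and 10.3 in mesenchyme and 4.03 and 5.35 in glia. The neuronal level was highest in cluster 9, a group led by STMN2 and holding LHX9 among its leading genes, at 67.6 and 66.9 CPM, beside 8.79 and 8.30 in cluster 10, led by genes such as PPP1R17 and NEUROD1. P2RX2, an ATP-gated channel, was low. TMEM132E, a membrane protein of unclear role, was at 8.06 and 5.87 CPM in glia, 2.48 and 5.31 in neurons, 0.347 and 0.387 in otic epithelium, 0.354 and 0.261 in mesenchyme and at 0 in the hair cell-like cells of both libraries, where a count of 0 allows up to 12.5 and 7.73 CPM. Of the extracellular proteins, COCH (cochlin) was at 12.5 and 5.15 CPM in hair cell-like cells, 11.5 and 8.95 in otic epithelium, 8.23 and 11.8 in mesenchyme, 2.82 and 4.47 in glia and 13.4 and 16.7 in neurons, which names no lineage. TSPEAR was low, and CEACAM16, a tectorial membrane protein, had 0 UMIs in all 5 lineages of both libraries.

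As a comparison, 53 other hearing loss genes listed for this report were placed in the same way. Of these, 17 were placed in hair cell-like cells, 0 in otic epithelium, 5 in mesenchyme, 2 in glia and 0 in neurons, with 3 broad, 17 shared and 9 low. Of all genes, 1.64%, 0.388%, 0.803%, 0.888% and 1.02% were placed in these 5 lineages, in that order. Broad, shared and low genes made up 20.9%, 13.3% and 61% of all genes. The placement is not independent for all of the 53 genes, since 11 of the 17, 3 of the 5 and 1 of the 2 are markers that defined those classes. The highest in hair cell-like cells was PCDH15, a tip link cadherin, at 2226 and 2080 CPM. The cartilage collagens COL2A1, at 2490 and 2249 CPM, and COL11A1, at 1550 and 1481, were highest in mesenchyme, and EDNRB, at 509 and 651, and SOX10, at 234 and 238, in glia. Both gene sets had hair cells as the lineage with most placed genes. Both had 0 in otic epithelium and in neurons, but these lineages held only 0.388% and 1.02% of all genes. A count of 0 there therefore says little about either set.

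The 2 libraries were then compared within each lineage, for genes at 5 CPM or more in either library. In otic epithelium summed over its clusters, 32 of the 48 genes could be compared. Of these 0 were 2-fold higher in either library, beside 1.11% of all genes higher in GelNB-CH and 1.22% higher in Matrigel. For 9 of the 32 ratios of GelNB-CH to Matrigel the interval included 1. The largest ratios were SMPX at 1.93 (1.65 to 2.26), HGF at 1.81 (1.71 to 1.93), MET at 1.51 (1.29 to 1.77) and GRHL2 at 1.41 (1.37 to 1.46), and the lowest was MSRB3 at 0.733 (0.672 to 0.799). The otic clusters were not equally filled, since cluster 14, where HGF was highest, had 1992 and 274 cells. When the otic clusters were given a common composition in the 2 libraries, the HGF ratio was 1.36 and that of GRHL2 1.29, while thinning to 5000 UMIs put SMPX at 2.53. Inside single otic clusters, some genes at 5 CPM or more were 2-fold apart. CRYM was higher in GelNB-CH in 2 of 7 clusters, SMPX in 2 of 4, HGF and PJVK in 1 of 7 and MET in 1 of 4. COCH and PNPT1 were higher in Matrigel in 1 of 7 and TMPRSS3 in 1 of 4. The share of all genes was not computed for single clusters. In mesenchyme 0 of 29 genes were 2-fold apart (0.527% and 0.996% of all genes), and in all kept cells 0 of 34 (0.96% and 1.76%).

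**Figure D5:**
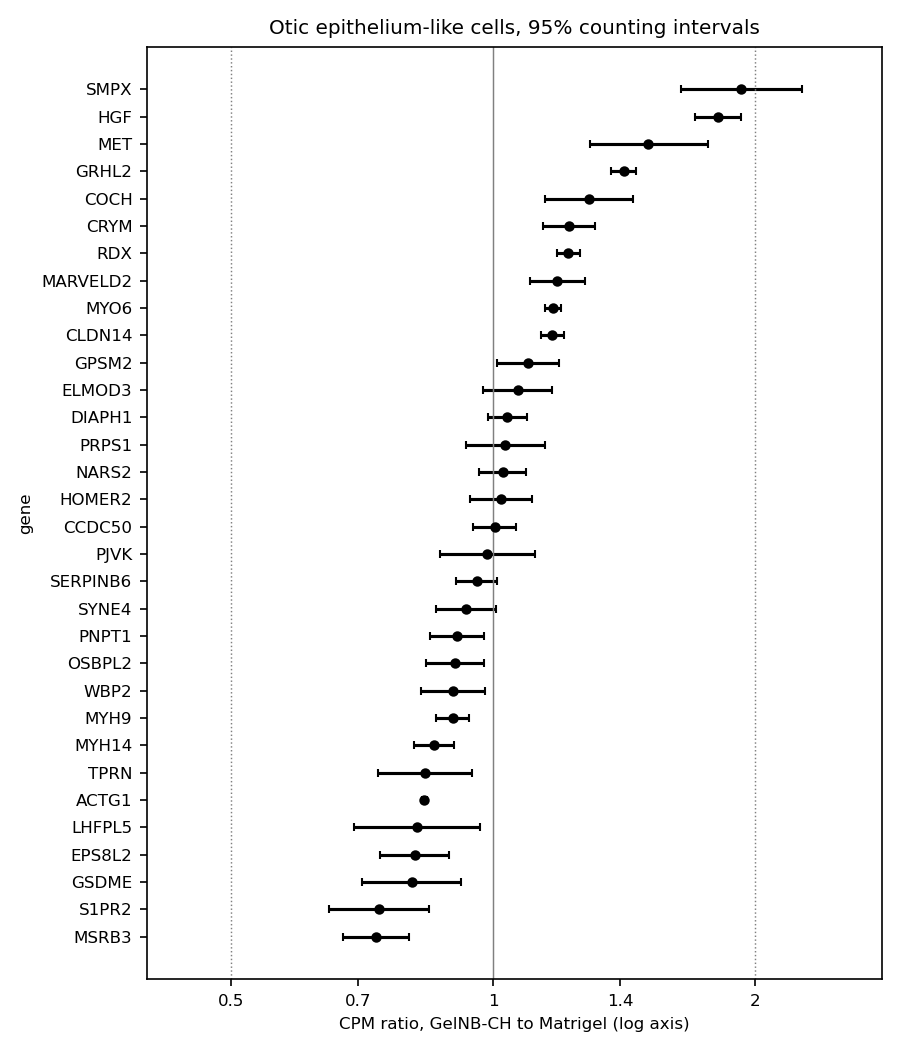
Ratio of CPM in GelNB-CH to CPM in Matrigel (x axis, log) within otic epithelium-like cells for the 32 genes compared (y axis), with 95% counting intervals and dotted lines at 2-fold. All points lie inside the dotted lines, from MSRB3 at 0.733 to SMPX at 1.93.

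Glia and neurons held 5 genes that were 2-fold apart. In glia, 2 of 26 genes were higher in GelNB-CH, beside 0.959% of all genes: HGF by 3.98-fold (3.12 to 5.08) and CRYM by 2.91-fold (2.46 to 3.45). None of the 26 was higher in Matrigel, beside 1.65%. The HGF level in glia belonged to cluster 16, at 33.4 and 5.85 CPM, beside 0.859 and 0.0942 in cluster 17. HGF in glia amounted to 26.9% and 12.3% of its otic level, beside a median of 2.86% and 3.39% for 9 otic markers. CRYM in glia amounted to 3.87% and 1.4995% of its mesenchymal level. For 11 mesenchyme markers in glia the median was 5.16% and 2.12%, also higher in GelNB-CH, and the lowest was 1.06% (LUM) and 0.685% (TWIST1). CRYM thus lay between the lowest marker and the median in both libraries. Glia-like cells carried a median of 3 of 12 mesenchyme markers. In all 3 glia clusters CRYM was 2-fold or more higher in GelNB-CH. Whether carried-over RNA has a part in the CRYM level of glia was not tested. In neurons, 1 of 24 genes was higher in GelNB-CH, ADCY1 by 2.28-fold (1.94 to 2.69), beside 5.15% of all genes. A further 2 were higher in Matrigel, MYO6 by 2.18-fold (2.05 to 2.31) and TMEM132E by 2.14-fold (1.39 to 3.37), beside 3.66%. The neurons differed in make-up, with 837 and 127 cells in cluster 9 and 360 and 646 in cluster 10. Within cluster 9 ADCY1 was at 67.6 and 66.9 CPM and MYO6 at 80.2 and 84.6, and within cluster 10 MYO6 was at 232 and 334, so that neither gene was 2-fold apart inside these clusters. TMEM132E was still 2-fold higher in Matrigel in 1 of the 2 neuron clusters where it reached 5 CPM, cluster 11, at 8.59 CPM in Matrigel.

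In hair cell-like cells 38 genes could be compared, with GelNB-CH ahead by 2-fold or more for 7 and Matrigel for 8, beside 13.5% and 22.7% of all genes in this sparse class. Those higher in GelNB-CH were ILDR1, GRHL2, TPRN, COCH, TMPRSS3, GSDME and PJVK, and those higher in Matrigel were TMC1, MYH9, DIAPH1, HGF, KITLG, MSRB3, CRYM and OSBPL2. For 8 of these 15 the interval of the ratio included 1. MYO6 had a ratio of 1.02 (0.885 to 1.18) and LHFPL5 of 0.859 (0.437 to 1.63), the first a narrow interval and the second a wide one. OTOF had a ratio of 1.99 (1.38 to 2.88), which became 1.252 (0.820 to 1.92) without the deepest cells. GRHL2 had a ratio of 5.05 (2.77 to 9.72), which became 1.49 (0.171 to 17.8) without them.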

How the data were processed

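The files the authors deposited hold raw UMI counts for every gene in each called cell of a library. The labels' protocols describe them as filtered matrices. Cell Ranger is given as version 7.1.0 in the file headers and as 4.0.0 in the labels' protocols, while STAR and GRCh38 are named in the submitters' processing notes. No annotation version is stated.

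Cells with at least 1000 genes and at most 15% mitochondrial UMIs were kept, and Scrublet doublets (14.2% and 6.55% of barcodes; expected rate 0.8% per 1000) were removed. The libraries were clustered together with scanpy 1.11.5 (2000 variable genes, 30 principal components, 15 neighbours, Leiden resolution 1), giving 24 clusters. Clusters were named when 3 or more markers, making up 0.3 or more of a list, were detected in 10% of cells and 2-fold above the median cluster, and no other list had more of its markers among the 10 leading genes. Genes named by the text follow a fixed rule: every gene placed in 1 lineage or 2-fold apart between libraries, and examples by role for the rest. Of the other hearing loss genes, the 2 highest in each lineage were to be named, and 1 of these is not reported here. Features singled out beyond it, such as otic cluster 6, were picked once their values were known. The members and lists were chosen with earlier results of these data known.

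CPM were computed here from counts summed per library and cell class. Intervals are exact Poisson, Clopper-Pearson and conditional binomial (scipy 1.17.1). No significance test between groups was made, because each group has 1 library. The code for the placement and the ratios was run on simulated counts beforehand. Thinning to 5000 UMIs left out 1939 and 418 shallower cells. Alternatives changed the filter, doublets, clustering, depth, scaling and limits. In bulk sums of a class, fewer expressing cells and less RNA per cell cannot be told apart. RNA free in the suspension can add UMIs to any class, and the levels of the markers of 1 lineage in another are given for some pairs of lineages only.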

Additional observations from a re-analysis of the deposited data

Results flagged for a closer look

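HGF was 3.98-fold higher in GelNB-CH than in Matrigel in glia-like cells, while its ratio in hair cell-like cells was 0.179, the opposite direction. The hair cell ratio rests on 1 UMI in GelNB-CH and on 9 UMIs of 1 Matrigel cell, with an interval of 0.00408 to 1.29. CRYM was 2.91-fold higher in GelNB-CH in glia-like cells and had a ratio of 0.254 (0.0482 to 0.864) in hair cell-like cells, where 19 UMIs came from 1 Matrigel cell. Each lineage has 1 library per group, so neither difference between lineages was tested.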

How the results depend on the processing

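No paired analysis was possible because each group has 1 library and the labels give no replicate numbers. The number of genes placed in hair cells was 9 to 11 under every alternative that keeps this lineage, and LHFPL5, OTOF, CABP2, MYO6, EPS8L2, TMPRSS3, SYNE4 and PJVK were among them under each setting listed. The other members changed. GPSM2 was gained with doublets kept and at resolution 0.5, while thinning to 5000 UMIs gained GIPC3 and lost SMPX, TMIE and HOMER2. Thinning to 5000 UMIs placed 1 gene in otic epithelium and 2 in glia and left 6 broad. A minimum of 1 CPM left 3 genes low, and a 3-fold limit left 1 in mesenchyme. Without the hair cell lineage, 7 genes were placed in otic epithelium, 2 in glia and 1 in neurons, with 8 shared and 13 low, and with the deepest hair cells left out 3 were placed in otic epithelium. Between libraries, the count of genes 2-fold higher in GelNB-CH over all cells became 1 after thinning and 1 with median-of-ratios scaling, and the count higher in Matrigel became 1 at a minimum of 1 CPM. In otic epithelium the count higher in GelNB-CH became 1 under the looser cell filter, 1 with doublets kept, 1 at resolution 0.5, 1 after thinning and 1 with a mean over cells, and the count higher in Matrigel became 1 with a mean over cells. The cause was not tested, except that fewer lineages or cells entered where a lineage or cells were left out. Of the ratios of single genes in otic epithelium under the alternatives, 69 stayed within the counting interval and 27 did not. The 16 and 12 hair cell-like cells limit every level there: a count of 0 allows up to 12.5 and 7.73 CPM.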
